A study of Mus musculus with 42 samples.

Results

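The 38 genes described here encode the fatty acid oxidation machinery of mitochondria and peroxisomes together with classical targets and regulators of the nuclear receptor PPAR alpha. They were listed by name, with earlier results of these data known, and all 38 were found by symbol among the 48709 genes of the count table. Long-chain fatty acids enter mitochondria as carnitine esters and are shortened there by rounds of dehydrogenation, hydration, oxidation and thiolysis, with the electrons passed to the respiratory chain by the electron transfer flavoproteins. Very long chains are shortened first in peroxisomes, and chains with double bonds need additional isomerases and reductases. PPAR alpha is activated by fatty acids, the omega-3 fatty acids EPA and DHA among them, and in liver it drives many of these genes.

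Expression was measured by 3' tag RNA sequencing in ear skin, aorta and liver. All mice were K14-Rac1V12, a transgenic line in which an active form of the GTPase Rac1 is made under the keratin 14 promoter of basal keratinocytes, so the OD mice carry the transgene too and no mice without it were compared. After 2 weeks on an omega-3 deficient (OD) diet, mice 14 weeks of age were randomised to an EPA diet, a DHA diet or further OD diet for 12 weeks. The EPA and DHA diets are stated at 3 g per kg of diet, equivalent to 4 g per day in people, and the label text for the DHA dose names EPA. Of these 2 omega-3 fatty acids, DHA is the longer and the more unsaturated. Each tissue has 5 EPA, 5 DHA and 4 OD libraries, 42 in all, taken as separate mice of a group. Sex and batch are not stated, and no label pairs libraries across tissues.

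Skin libraries held 40157 to 220488 counts, aorta libraries 179795 to 717508 and liver libraries 343824 to 768532. On this depth 3 counts correspond to 18.5 to 106 CPM (counts scaled to library size) in skin, 4.02 to 19 CPM in aorta and 4.29 to 9.18 CPM in liver. OD livers were the deepest, with 549635 to 768532 counts. The labelled tissues carried markers of their own. On the common scale of all libraries, the smooth muscle gene Myh11 averaged 2147 CPM in aorta. The hepatocyte gene Alb averaged 81292 CPM in liver, and 0.37% and 0.70% of that in aorta and skin, where every library held counts. In skin, 10 keratinocyte markers summed to 46801 to 73605 CPM on the scale of that tissue. Xist, transcribed from the inactive X chromosome, was above 200 CPM in the libraries EPA 1, EPA 5 and DHA 1 of each tissue and in none of the OD libraries. Levels are CPM scaled by TMM within a tissue unless stated otherwise. They are 3' tag counts that are not scaled by gene length and are compared between groups rather than between genes. A member was called higher or lower at a Benjamini-Hochberg adjusted p under 0.05 in edgeR's quasi-likelihood test over all genes tested in that tissue, and errors of log2 changes are standard errors.

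In aorta, members of the mitochondrial pathway were higher with DHA than with OD, and fewer passed with EPA. Of the 30 members with enough counts to be tested, 16 passed as higher and 0 as lower with DHA, where 4.88% of the 6538 tested genes passed, 280 of them as higher and 39 as lower. With EPA, 2 of the same 30 passed, both higher, where 0.275% of all tested genes passed. The fitted log2 change was above 0 for 29 of 30 members in each contrast, with a median of 0.71 for DHA and 0.62 for EPA, against a median of -0.05 and -0.02 over all tested genes. The 2 contrasts share their OD libraries. The 8 members with too few counts for a test in aorta were Acads, Acaa1b, Acot1, Acot4, Vnn1, Fgf21, Ucp3 and Creb3l3. Every DHA library lay above every OD library for 18 of the 30 members, a separation seen in that direction for 5.38% of all tested genes. Every EPA library lay above every OD library for 5 of 30 (Cpt2, Hadha, Hadh, Echs1 and Ppara), against 1.9% of all tested genes.

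The carnitine shuttle was led by Cpt2, which removes carnitine from acyl groups on the inner mitochondrial membrane (GRCm38, chromosome 4, 107903981 to 107923610, minus strand). It had 87.0, 133, 110.0, 146 and 139 CPM in EPA aortas, 124, 117, 137, 129 and 149 CPM in DHA aortas, and 57.1, 80.3, 77.2 and 45.8 CPM in OD aortas. Neither fatty acid group overlapped with OD. Cpt2 was 1.87-fold higher with EPA (log2 change 0.90 ± 0.19, adjusted p = 0.0452) and 1.98-fold higher with DHA (0.98 ± 0.19, adjusted p = 0.00575). Slc25a20, the carrier that exchanges acylcarnitine for carnitine, had 153, 135, 154, 181 and 137 CPM in EPA aortas, 149, 187, 169, 163 and 125 CPM in DHA aortas, and 139.7, 103, 75.4 and 57.2 CPM in OD aortas. OD 1 lay within the range of both fatty acid groups. The carrier passed with DHA (0.86 ± 0.20, adjusted p = 0.0140), and with EPA its change was 0.79 ± 0.20 (adjusted p = 0.0628). Crat, which moves acyl groups between carnitine and coenzyme A, had 177, 153, 209, 215 and 213 CPM in EPA aortas, 214, 225, 189, 209 and 187 CPM in DHA aortas, and 159, 139, 126 and 78.5 CPM in OD aortas. It passed with DHA (0.75 ± 0.18, adjusted p = 0.0145) and had a change of 0.67 ± 0.18 with EPA (adjusted p = 0.0672). The outer membrane enzymes that load the shuttle did not pass: Cpt1b, the muscle and brown fat isoform, averaged 158 ± 44.4 CPM with EPA, 159.9 ± 16.2 CPM with DHA and 103 ± 31.8 CPM with OD (SD, n = 5, 5 and 4). Cpt1a, the liver isoform and a PPAR alpha target, was the one tested member with a fitted change below 0, with 55.2 ± 17.6 CPM with EPA, 66.5 ± 17.5 CPM with DHA and 79.2 ± 22.6 CPM with OD. Its changes of -0.55 ± 0.25 for EPA (adjusted p = 0.359) and -0.30 ± 0.25 for DHA (adjusted p = 0.589) did not pass.

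The enzymes of the mitochondrial beta-oxidation spiral moved together with DHA: 8 of the 8 tested passed as higher, with log2 changes of 0.67 to 1.10, while with EPA 1 of 8 passed and the changes were 0.48 to 0.86. Hadha and Hadhb encode the alpha and beta subunits of the trifunctional protein, which carries out the last 3 steps on long chains. Hadha had 480.3, 670.2, 569, 752 and 665 CPM in EPA aortas, 768, 694, 644, 721 and 666 CPM in DHA aortas, and 381, 477, 349.9 and 266 CPM in OD aortas. All EPA and DHA libraries lay above all OD libraries, EPA 1 by the smallest margin. The gene was 1.71-fold higher with EPA (0.77 ± 0.17, adjusted p = 0.0452) and 1.89-fold higher with DHA (0.92 ± 0.17, adjusted p = 0.00461). Hadhb had 731, 987, 907, 1066 and 1034 CPM in EPA aortas, 1327, 939, 958, 1024 and 975 CPM in DHA aortas, and 794, 735, 558 and 322 CPM in OD aortas, with EPA 1 inside the OD range. It passed with DHA (0.81 ± 0.20, adjusted p = 0.0218), and with EPA its change was 0.67 ± 0.20 (adjusted p = 0.105).

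Hadha and Hadhb stand head to head on chromosome 5 (GRCm38, Hadha 30118304 to 30155162 on the minus strand and Hadhb 30155248 to 30184593 on the plus strand), and their start regions overlap. RefSeq windows on GRCm38.p6 that run from 250 bases before to 50 bases after each gene's start were matched for 31 of the 38 members, in 32 windows. The windows of Hadha and Hadhb share 228 bases, and the RefSeq starts lie 273 bases apart, which differ from the gene ends of the GENCODE annotation given above. The Hadha window is shown because the shared stretch, in capitals, belongs to both genes whose levels moved together (chr5:30154931-30155230, minus strand, 5′ to 3′). The windows of Acadm (chr3:153944594-153944893, minus strand), Acadvl (chr11:70015379-70015678, minus strand) and Echs1 (chr7:140116372-140116671, minus strand) are shown because these are the spiral genes that passed with DHA and hold the nuclear receptor hexamer AGGTCA on either strand, in capitals.
Hadha: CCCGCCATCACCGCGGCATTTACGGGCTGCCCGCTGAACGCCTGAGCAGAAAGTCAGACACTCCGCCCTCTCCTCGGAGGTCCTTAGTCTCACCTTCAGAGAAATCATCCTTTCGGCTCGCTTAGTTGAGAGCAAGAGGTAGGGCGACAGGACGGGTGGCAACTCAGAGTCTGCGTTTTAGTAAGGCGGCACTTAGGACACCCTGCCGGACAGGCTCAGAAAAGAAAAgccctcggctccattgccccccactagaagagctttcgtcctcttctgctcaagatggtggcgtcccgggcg
Acadm: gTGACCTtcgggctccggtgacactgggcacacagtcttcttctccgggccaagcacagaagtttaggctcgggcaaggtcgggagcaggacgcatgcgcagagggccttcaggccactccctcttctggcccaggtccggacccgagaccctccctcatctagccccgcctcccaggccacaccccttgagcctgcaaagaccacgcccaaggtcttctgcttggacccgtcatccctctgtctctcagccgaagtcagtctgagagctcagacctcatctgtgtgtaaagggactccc
Acadvl: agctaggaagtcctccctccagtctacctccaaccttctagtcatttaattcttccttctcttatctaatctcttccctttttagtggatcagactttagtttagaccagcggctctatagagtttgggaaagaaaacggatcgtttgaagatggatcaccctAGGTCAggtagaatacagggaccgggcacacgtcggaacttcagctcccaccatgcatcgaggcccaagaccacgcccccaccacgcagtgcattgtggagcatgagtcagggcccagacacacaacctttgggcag
Echs1: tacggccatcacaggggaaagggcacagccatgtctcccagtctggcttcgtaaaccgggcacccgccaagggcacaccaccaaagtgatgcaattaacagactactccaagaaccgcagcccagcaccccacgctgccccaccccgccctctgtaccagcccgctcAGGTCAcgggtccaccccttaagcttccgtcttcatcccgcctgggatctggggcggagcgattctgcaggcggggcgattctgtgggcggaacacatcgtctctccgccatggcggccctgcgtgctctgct
In Acadm the hexamer is on the opposite strand and appears as TGACCT. The hexamer was found in 7 of the 32 member windows (21.9%), those of Acadm, Ucp3, Echs1, Creb3l3, Acadvl, Acot4 and Cpt1a, against 16.3% of 32851 windows of all genes. The response element of PPAR alpha, 2 such hexamers in the same direction with 1 base between, was in 0 of the 32 member windows as an exact match and in 0.0396% of all windows. With the fourth base of each hexamer free it was in 0 of 32 and in 0.381% of all windows. At shares this low a match among 32 windows would be rare, so 0 of 32 says little about the members. Sequence outside these windows was not searched.

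**Figure D1:**
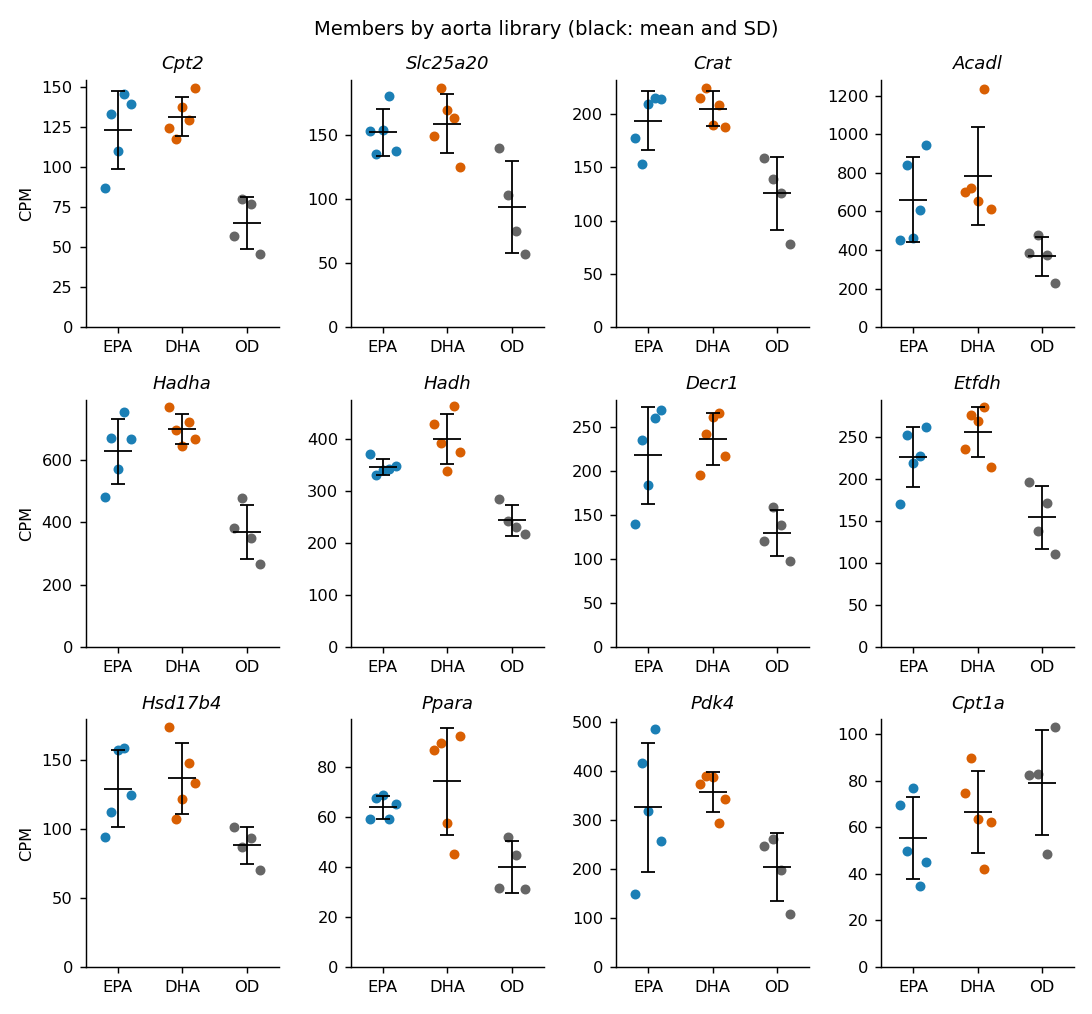
Levels of 12 members in each aorta library in CPM (vertical axes, from 0), with EPA, DHA and OD from left to right, and black bars for the mean and SD of 5, 5 and 4 libraries. Cpt2, Hadha and Hadh show no overlap between either fatty acid group and OD, whereas Cpt1a shows its highest library, 103 CPM, in OD.

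Among the dehydrogenases that start each round, Acadl, which prefers long chains (chromosome 1, 66830839 to 66863277, minus strand), had 452, 839, 465, 608 and 942 CPM in EPA aortas, 703, 722, 656, 1233 and 614 CPM in DHA aortas, and 387, 477, 377 and 232 CPM in OD aortas. The DHA and OD groups did not overlap. Its change was the largest of the spiral, 2.15-fold with DHA (1.10 ± 0.25, adjusted p = 0.0114) and 0.86 ± 0.25 on the log2 scale with EPA (adjusted p = 0.0927). DHA 4 alone stood at 1233 CPM, and without it Acadl still passed among 14 members. Acadvl, for very long chains, averaged 403 ± 81 CPM with EPA, 456 ± 25.9 CPM with DHA and 287 ± 69.5 CPM with OD, and Acadm, for medium chains, 855 ± 149.9, 879.8 ± 42.4 and 535 ± 164 CPM with EPA, DHA and OD (SD, n = 5, 5 and 4). Both passed with DHA (adjusted p = 0.0267 and 0.0281) and not with EPA (0.165 and 0.0800). Acads, for short chains, had too few counts to be tested in aorta, at 2 to 22 per library.

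Hadh, the dehydrogenase for medium and short 3-hydroxyacyl chains (chromosome 3, 131233419 to 131272101, minus strand), was the steadiest of the members that passed. It had 372, 331, 341, 344 and 349 CPM in EPA aortas, 429, 394, 339, 464 and 375 CPM in DHA aortas, and 286, 242, 231 and 217 CPM in OD aortas. Neither fatty acid group overlapped with OD. The change was 0.74 ± 0.13 with DHA (adjusted p = 0.00461) and 0.53 ± 0.13 with EPA (adjusted p = 0.0659). Echs1, the short-chain enoyl-CoA hydratase, had 209, 299, 223, 349 and 304 CPM in EPA aortas, 295, 273, 273, 288 and 258 CPM in DHA aortas, and 203, 204, 167 and 128 CPM in OD aortas. Its change was 0.69 ± 0.17 with either diet, past the threshold with DHA (adjusted p = 0.0198) and not with EPA (0.0628). Acaa2, the mitochondrial thiolase, averaged 548 ± 136 CPM with EPA, 631 ± 76.5 CPM with DHA and 400.0 ± 92.4 CPM with OD and passed with DHA (0.67 ± 0.19, adjusted p = 0.0402).

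Of the 5 auxiliary isomerases and reductases, which handle double bonds, Ech1 and Decr1 passed with DHA and none with EPA. Decr1, the mitochondrial 2,4-dienoyl-CoA reductase needed for polyunsaturated chains (chromosome 4, 15917240 to 15945507, minus strand), had 139, 235, 184, 259.7 and 269 CPM in EPA aortas, 196, 242, 261, 266 and 217 CPM in DHA aortas, and 121, 159, 138 and 98.1 CPM in OD aortas. All DHA libraries lay above all OD libraries, while EPA 1 lay within the OD range. Its change was 0.86 ± 0.19 with DHA (adjusted p = 0.0101) and 0.75 ± 0.19 with EPA (adjusted p = 0.0628). Ech1, a dienoyl-CoA isomerase, had 327, 468, 514, 522 and 577 CPM in EPA aortas, 494, 556, 486, 515 and 475 CPM in DHA aortas, and 248, 384, 341 and 219 CPM in OD aortas, with a change of 0.74 ± 0.17 with DHA (adjusted p = 0.0151). Eci1 had changes of 0.45 ± 0.16 with EPA and 0.53 ± 0.17 with DHA, and Eci2 and the peroxisomal reductase Decr2 had 0.11 to 0.42. None of these passed.

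The electron transfer flavoprotein and its dehydrogenase carry the electrons of the first step to ubiquinone. Etfdh, the dehydrogenase, had 171, 252, 220.0, 228 and 262 CPM in EPA aortas, 236, 276, 269, 286 and 215 CPM in DHA aortas, and 197, 138, 172 and 111 CPM in OD aortas. DHA and OD did not overlap. It passed with DHA (0.79 ± 0.17, adjusted p = 0.0101) and had 0.62 ± 0.17 with EPA (adjusted p = 0.0779). Etfa, the alpha subunit, had 358, 485, 415, 539 and 580.4 CPM in EPA aortas, 488, 556, 560.0, 525 and 443 CPM in DHA aortas, and 317, 380.2, 377 and 222 CPM in OD aortas, and passed with DHA (0.66 ± 0.17, adjusted p = 0.0258). The beta subunit Etfb had 0.54 ± 0.20 with DHA and 0.41 ± 0.20 with EPA and did not pass.

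Of the 4 peroxisomal members tested in aorta, 1 passed with DHA and 0 with EPA. Hsd17b4, the peroxisomal multifunctional enzyme, averaged 129 ± 28.1 CPM with EPA, 137 ± 25.7 CPM with DHA and 88.1 ± 13.3 CPM with OD, and passed with DHA (0.67 ± 0.19, adjusted p = 0.0389). Ehhadh, the other bifunctional enzyme and a PPAR alpha target, had a change of 1.06 ± 0.37 with EPA and 0.85 ± 0.38 with DHA on 6 to 42 counts per library, and neither passed (adjusted p = 0.181 and 0.245). Acaa1a, a thiolase, had 0.66 ± 0.29 with EPA and 0.64 ± 0.29 with DHA, Pex11a, a factor of peroxisome division, 0.17 ± 0.31 and 0.44 ± 0.30, and the mitochondrial thioesterase Acot2 0.43 ± 0.33 and 0.69 ± 0.33 in the same order, and none of these passed. The thiolase Acaa1b had at most 10 counts in an aorta and was not tested. Acaa1a and Acaa1b are close copies, as are the thioesterases Acot1 and Acot2, and how reads were shared between such copies is not given in the sources used here, so their separate levels are uncertain.

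Among the other PPAR alpha targets in aorta, Pdk4, the kinase that turns off pyruvate dehydrogenase, had 149.7, 418, 319, 487 and 257 CPM in EPA aortas, 373, 390.3, 389, 294 and 342 CPM in DHA aortas, and 248, 262, 197 and 108 CPM in OD aortas. DHA and OD did not overlap, but the change of 0.83 ± 0.26 did not pass (adjusted p = 0.0678), nor did 0.72 ± 0.26 with EPA (adjusted p = 0.196). Angptl4, a secreted inhibitor of lipoprotein lipase, had 0.69 ± 0.37 with EPA and 0.79 ± 0.37 with DHA and did not pass. Ucp3, a mitochondrial carrier of muscle and brown fat, had its highest counts in aorta, at 1 to 14 per library, and was not tested: it averaged 13.4 ± 8.68 CPM with EPA, 15.7 ± 8.25 CPM with DHA and 13.4 ± 8.13 CPM with OD.

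Neither tested regulator passed in aorta. Ppara, the receptor itself, had 59.2, 67.6, 68.7, 59.4 and 65.1 CPM in EPA aortas, 87.0, 89.8, 57.8, 45.4 and 92.4 CPM in DHA aortas, and 31.7, 52.2, 44.9 and 31.1 CPM in OD aortas. EPA and OD did not overlap, and DHA 4 lay within the OD range. The changes were 0.62 ± 0.23 with EPA (adjusted p = 0.231) and 0.78 ± 0.23 with DHA (adjusted p = 0.0568). Ppargc1a, a coactivator of mitochondrial genes, had 38.3, 32, 24.7, 66.8 and 143 CPM in EPA aortas, 56, 31.1, 47.8, 57.2 and 141 CPM in DHA aortas, and 63.5, 52.2, 57.4 and 32.7 CPM in OD aortas. The high values were those of EPA 5 and DHA 5, and the remaining libraries of the 3 diets overlapped (0.38 ± 0.43 with EPA and 0.43 ± 0.43 with DHA).

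**Figure D2:**
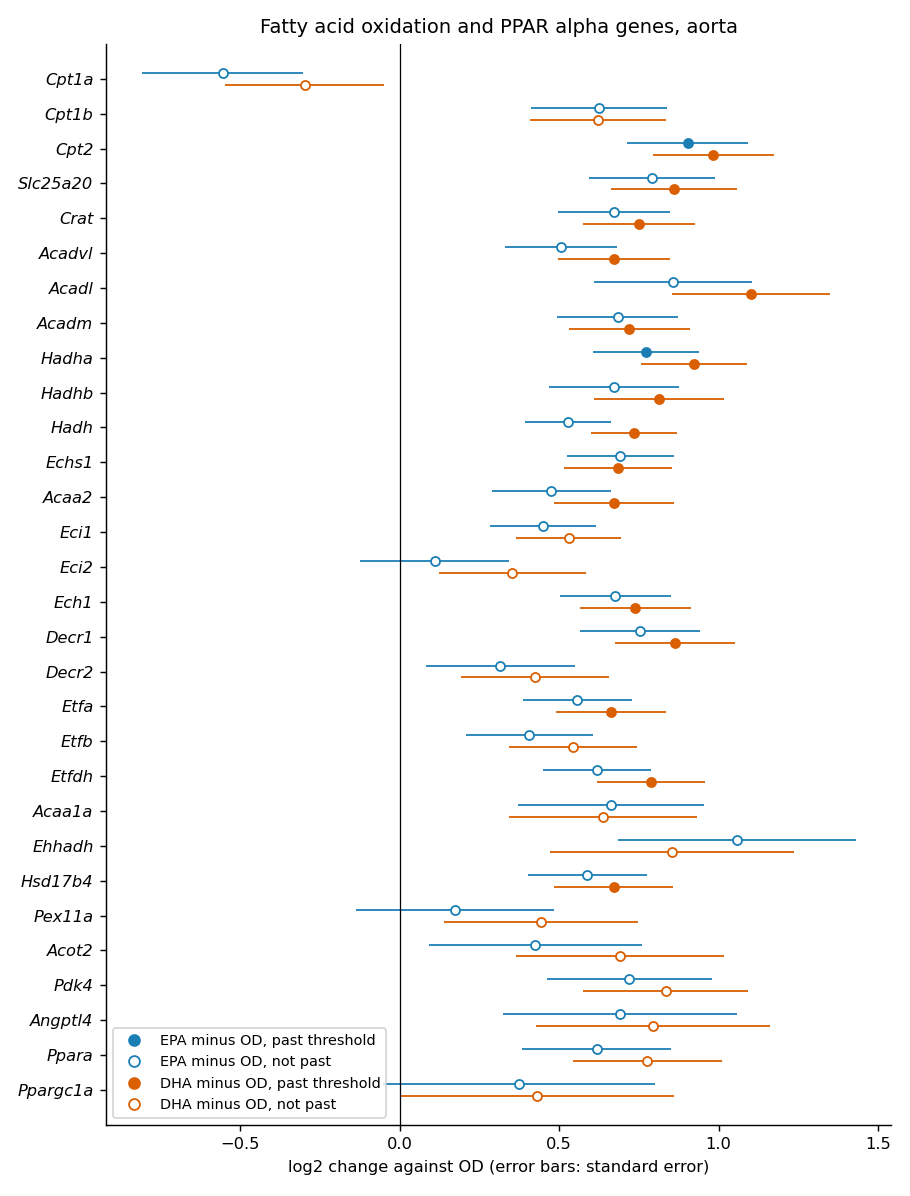
Log2 changes against OD (horizontal axis, bars are standard errors) of the 30 members tested in aorta, with EPA above DHA for each gene and filled points for those past the threshold. All but Cpt1a lie to the right of 0, and the filled points are 16 for DHA and 2 for EPA.

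EPA and DHA were compared directly at the same stated dose. None of the 30 members tested in aorta passed (0% of 6538 genes passed, and 226 genes had an unadjusted p under 0.05, 0 of them members). The fitted EPA minus DHA change was above 0 for 4 of 30 members, with a median of -0.11 and a range of -0.27 to 0.20. The 95% intervals were -0.46 to 0.16 for Hadha, -0.43 to 0.27 for Cpt2, -0.46 to 0.05 for Hadh and -0.71 to 0.22 for Acadl. Over the 30 members the interval bounds reached -0.88 and 0.88, so differences of that size were not excluded for the members with few counts.

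Of 60 other genes of fatty acid handling and PPAR alpha action, 41 were tested in aorta. With DHA, 13 passed as higher and 0 as lower, where 4.88% of all tested genes passed. With EPA 0 passed, and 20 had an unadjusted p under 0.05, as did 822 of all 6538 tested genes. Plin2, a lipid droplet coat protein, had 129, 354, 278, 388 and 419 CPM in EPA aortas, 376, 338, 323, 351 and 318 CPM in DHA aortas, and 178, 189, 136 and 142 CPM in OD aortas. DHA and OD did not overlap, and EPA 1 lay below all OD libraries. Its change was 1.09 ± 0.22 with DHA (adjusted p = 0.00773) and 0.99 ± 0.22 with EPA (adjusted p = 0.0541). Acad11, an acyl-CoA dehydrogenase, had 1.06 ± 0.23 with DHA (adjusted p = 0.0101) and 1.01 ± 0.23 with EPA (adjusted p = 0.0541). Fabp3, the fatty acid binding protein of muscle and brown fat, had 0.90 ± 0.20 with DHA (adjusted p = 0.0101) and 0.78 ± 0.20 with EPA (adjusted p = 0.0628). Mlycd, which removes the malonyl-CoA that blocks carnitine palmitoyltransferase, had 0.98 ± 0.26 with EPA (adjusted p = 0.0724).

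Markers of brown adipocytes moved with these members in aorta, although perivascular fat had been removed per the labels' protocols. The summed level of 18 brown adipocyte markers, none of them members, was 4580 to 8232 CPM in EPA aortas, 7792 to 9129 CPM in DHA aortas and 2187 to 5180 CPM in OD aortas. Over all genes tested in aorta, 4.88% passed with DHA and 0.275% with EPA. All 18 brown adipocyte markers had counts there, but Zic1 and Lhx8 had only 5 and 6 in total, with 10 of the 14 libraries at 0. Of the 15 tested, 7 passed as higher with DHA and 1 with EPA, and Ucp1, the uncoupling protein that defines brown fat, had 905, 1895, 1289.7, 1659 and 2293 CPM in EPA aortas, 1704, 2532, 1851, 1964 and 1807 CPM in DHA aortas, and 832, 1255, 781 and 451 CPM in OD aortas (1.25 ± 0.26 with DHA, adjusted p = 0.00803). The summed level of the 38 members followed the same order, at 6268 to 10013 CPM, 8742 to 10230 CPM and 3971 to 6726 CPM with EPA, DHA and OD. EPA 1 was the lowest EPA library and OD 4 the lowest OD library on both sums. In bulk tissue, fewer cells of a type and less RNA per cell cannot be told apart.

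Other markers were less even. All 20 white adipocyte markers had counts in aorta, but Lep and Nnat had only 12 and 18 in total. Of the 20, 18 were tested, and 8 passed as higher with DHA and 0 with EPA. Over all tested genes 4.88% and 0.275% passed in the same order. The 20 markers summed to 8788 to 18493 CPM in EPA aortas, 14060 to 16270 CPM in DHA aortas and 8546 to 11613 CPM in OD aortas. All 10 smooth muscle markers had changes below 0 in both contrasts, 1 of them passing with DHA, and summed to 9781 to 14952 CPM, 9728 to 12191 CPM and 13363 to 17999 CPM with EPA, DHA and OD. Skeletal muscle markers summed to 1316 CPM in EPA 2, 970.4 CPM in DHA 3 and 839 CPM in DHA 5, against 38 to 176 CPM in the other 11 aortas, and 0 of the 4 tested passed, Acta1 having changes of 2.54 ± 1.16 with EPA and 2.37 ± 1.18 with DHA. Of the other lists, 0 of 4 tested cardiac muscle, 0 of 8 hepatocyte and 0 of 2 keratinocyte markers passed in either contrast, while 5 of 7 sebocyte markers passed as higher with DHA and 0 with EPA. Of the 11 sebocyte markers, Awat2 had 0 counts in aorta, and Scd3, Far2 and Dgat2l6 only 5, 6 and 5 in total. The sebocyte list shares Elovl3 and Cidea with the brown adipocyte list. The brown and white adipocyte lists share Adrb3. Of the other pathway genes that passed with DHA, Cd36 is also a listed white adipocyte marker and Pparg a listed sebocyte marker. The lists are therefore not separate sets of genes. The share of counts from mitochondrial genes was 21 to 25.3% in EPA aortas, 22.1 to 30.8% in DHA aortas and 11 to 26.9% in OD aortas, with OD 4 and OD 3 lowest.

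**Figure D3:**
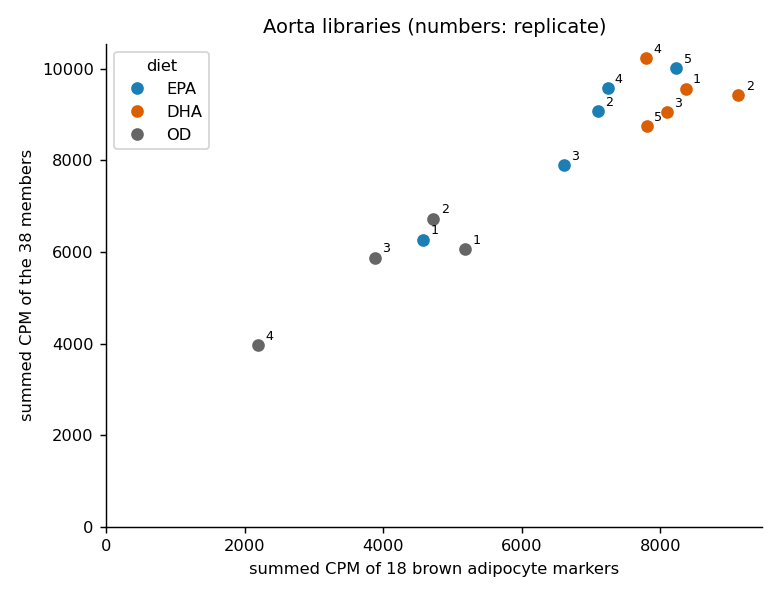
Summed CPM of the 38 members (vertical axis) against summed CPM of 18 brown adipocyte markers (horizontal axis) in each of the 14 aorta libraries, coloured by diet and numbered by replicate. The OD libraries and EPA 1 lie at or below 5180 CPM of brown adipocyte markers, and the other EPA and all DHA libraries at or above 6605 CPM.

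With the mean log2 level of the brown adipocyte markers as a covariate, 0 of 30 members passed in either contrast. The 16 members that had passed with DHA then had log2 changes of -0.12 to 0.61 with a median of 0.17, and 12 of the 16 stayed above 0. With the white adipocyte markers as a covariate 0 passed too, and the 16 kept changes of 0.13 to 0.75. Diet and the level of these markers moved together in these aortas, and their parts in the members' changes cannot be told apart. The share of all tested genes that passed is not given for these 2 fits, so their counts cannot be read as particular to the members. The counts also rested on single libraries. For the fits that follow too, the share of all tested genes that passed is not given. With DHA, 3 members (Cpt2, Hadh and Hadha) passed without OD 4 and 8 without OD 3, and 0 without both, where the 16 still had changes of 0.42 to 0.85. With EPA, 16 passed without EPA 1, 8 without OD 1, 6 without OD 2 and 0 without any of the remaining libraries in turn. Scaling by total counts alone shifted the median log2 change of all genes by -0.20 for DHA and by -0.15 for EPA, and 4 and 0 members passed, with the changes of the 16 at 0.45 to 0.91.

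In liver, 32 members were tested and none passed with EPA or DHA, and neither did any of the 5018 tested genes (0% in both contrasts, with 336 and 309 genes at an unadjusted p under 0.05 for EPA and DHA). Cpt1b, Acot1, Acot2, Pdk4, Fgf21 and Ucp3 had too few counts in liver to be tested. DESeq2 called 0 members in both contrasts. An unadjusted p under 0.05 was reached by 3 members with EPA and 8 with DHA, all of them higher. The fitted change was above 0 for 25 of 32 members with EPA (median 0.18) and for 26 of 32 with DHA (median 0.26), against medians of 0.01 over all genes in both contrasts. Every DHA liver lay above every OD liver for 3 of 32 members (Cpt2, Hadh and Acot4), against 1.22% of all tested genes, and every EPA liver above every OD liver for 0 of 32, against 0.737%. EPA and DHA livers did not differ past the threshold for any member (0% of all genes, with 184 genes at an unadjusted p under 0.05). Cpt2 had the smallest p, at -0.53 for EPA minus DHA with an interval of -1.05 to -0.01.

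Acot4, a peroxisomal thioesterase, had the largest fitted changes among the members tested in liver. It had 69.2, 15.3, 9.15, 6.71 and 38 CPM in EPA livers, 38.8, 27.5, 30.3, 22.4 and 20.4 CPM in DHA livers, and 4.29, 9.14, 10.6 and 11.6 CPM in OD livers, on 3 to 35 counts. DHA and OD did not overlap, and EPA spanned both. The changes were 1.67 ± 0.57 with EPA (adjusted p = 0.613) and 1.65 ± 0.58 with DHA (adjusted p = 0.720). The high EPA livers were EPA 1 and EPA 5, the libraries with high Xist, and without the high Xist libraries the changes were 0.24 with EPA and 1.47 with DHA. Vnn1, a pantetheinase and PPAR alpha target, had 79.1, 17.5, 38.9, 22.4 and 38 CPM in EPA livers, 63.3, 12.2, 86.2, 53.8 and 8.17 CPM in DHA livers, and 18.6, 18.3, 6.39 and 17.3 CPM in OD livers. The groups overlapped, with changes of 1.33 ± 0.58 with EPA and 1.53 ± 0.58 with DHA, and of 0.73 and 1.35 without the high Xist libraries.

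The carnitine shuttle in liver had Crat at 27.7, 24.1, 13.7, 20.1 and 19.98 CPM in EPA livers, 34.7, 33.7, 30.3, 24.6 and 12.3 CPM in DHA livers, and 17.2, 9.14, 10.6 and 10.1 CPM in OD livers. OD 1 lay within both fatty acid groups, and the changes were 0.82 ± 0.34 with EPA (adjusted p = 0.712) and 1.14 ± 0.33 with DHA (adjusted p = 0.712). Cpt2 had 43.5, 19.7, 59.5, 71.6 and 52.0 CPM in EPA livers, 65.3, 67.3, 79.2, 91.8 and 53.1 CPM in DHA livers, and 38.6, 43.9, 46.9 and 40.4 CPM in OD livers, a change of 0.75 ± 0.26 with DHA (adjusted p = 0.720) and 0.22 ± 0.27 with EPA. Slc25a20 had 0.61 ± 0.22 with DHA and 0.27 ± 0.22 with EPA. Cpt1a, most abundant in liver among the 3 tissues, averaged 264 ± 27.6 CPM with EPA, 309.8 ± 54.5 CPM with DHA and 256 ± 33.3 CPM with OD (SD, n = 5, 5 and 4), and its intervals against OD were -0.27 to 0.36 for EPA and -0.04 to 0.59 for DHA.

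**Figure D4:**
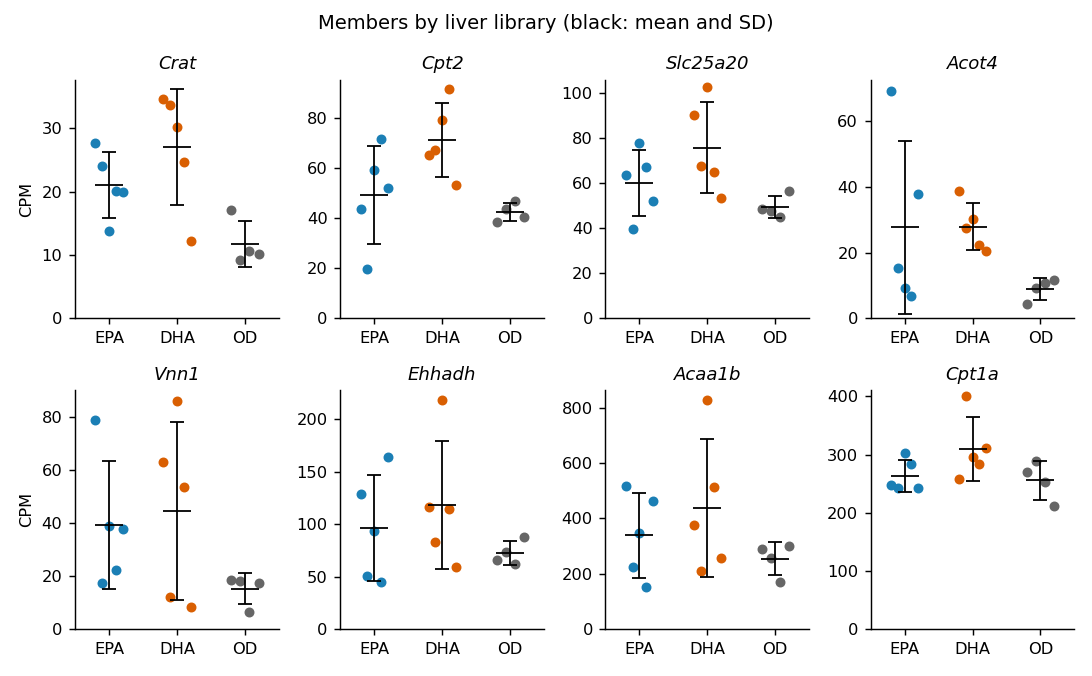
Levels of 8 members in each liver library in CPM (vertical axes, from 0), with EPA, DHA and OD from left to right, and black bars for the mean and SD of 5, 5 and 4 libraries. Acot4 and Cpt2 show all DHA livers above all OD livers, and the other panels show groups that overlap.

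The enzymes of the spiral had small fitted changes in liver. Hadha averaged 159 ± 25.0 CPM with EPA, 164 ± 43.7 CPM with DHA and 164 ± 31.7 CPM with OD, with intervals of -0.45 to 0.36 for EPA and -0.41 to 0.40 for DHA. Hadh had 212, 179.8, 194, 175 and 212 CPM in EPA livers, 200.1, 184, 226, 258 and 202 CPM in DHA livers, and 164, 183, 166 and 159 CPM in OD livers. Its DHA and OD groups did not overlap, by a narrow margin (0.35 ± 0.13, adjusted p = 0.741). Over the 9 tested enzymes of the spiral the changes were -0.08 to 0.27 with EPA and -0.04 to 0.35 with DHA. The flavoprotein members had -0.26 to 0.04 with EPA and -0.16 to 0.09 with DHA.

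The classical PPAR alpha targets Acaa1b and Ehhadh spanned wider ranges within the EPA livers and within the DHA livers than within the fewer OD livers. Acaa1b, a peroxisomal thiolase, had 516, 224, 345, 152 and 462 CPM in EPA livers, 378, 208, 829, 515 and 255 CPM in DHA livers, and 290.2, 256, 170.4 and 302 CPM in OD livers (0.41 ± 0.38 with EPA and 0.78 ± 0.38 with DHA). Ehhadh had 129, 50.4, 93.8, 44.8 and 164 CPM in EPA livers, 116, 82.6, 219, 114 and 59.3 CPM in DHA livers, and 65.8, 73.1, 61.8 and 88.1 CPM in OD livers (0.42 ± 0.37 with EPA and 0.71 ± 0.37 with DHA). In both genes the EPA livers reached above and below the OD range, and the DHA livers did so for Ehhadh but only above it for Acaa1b. DHA 3 was highest, and EPA 1 and EPA 5 the highest EPA livers. Acot1, a cytosolic thioesterase, had too few counts to be tested, at 2 to 32 per liver, and again stood highest in DHA 3, at 74.6 CPM. Fgf21, a fasting hormone of liver, had 0 to 5 counts per liver and 0 counts in every aorta and skin library. Angptl4 averaged 81.5 ± 25.7 CPM with EPA, 78.5 ± 22.1 CPM with DHA and 66.4 ± 18.6 CPM with OD, with changes of 0.29 ± 0.26 and 0.25 ± 0.26 for EPA and DHA.

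The regulators were steadier in liver. Ppara had 225, 105, 126, 145 and 134 CPM in EPA livers, 116, 125, 161, 184 and 157 CPM in DHA livers, and 159, 143, 138 and 116 CPM in OD livers, with overlapping groups and changes of 0.09 ± 0.20 with EPA and 0.10 ± 0.20 with DHA. Creb3l3, a liver transcription factor that works with PPAR alpha, had 227, 178, 269.9, 298 and 246 CPM in EPA livers, 214, 309, 333, 329 and 198 CPM in DHA livers, and 212, 230.4, 173 and 217 CPM in OD livers. Its change was 0.41 ± 0.19 with DHA (adjusted p = 0.795) and 0.23 ± 0.19 with EPA. Ppargc1a had -0.08 ± 0.25 with EPA and 0.08 ± 0.25 with DHA.

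Of the 60 other pathway genes, 42 were tested in liver and 0 passed in either contrast. An unadjusted p under 0.05 was reached by 6 for EPA and 8 for DHA, against 336 and 309 of all 5018 tested genes. The omega-hydroxylase Cyp4a14, a classical PPAR alpha target, had 291, 28.5, 45.7, 38 and 319.7 CPM in EPA livers, 269.5, 79.6, 175, 264 and 69.5 CPM in DHA livers, and 4.29, 25.6, 66 and 60.6 CPM in OD livers. All DHA livers lay above all OD livers, and EPA 1 and EPA 5, the EPA livers with high Xist, stood apart from the other 3. Its changes were 1.93 ± 0.75 with EPA (adjusted p = 0.698) and 2.17 ± 0.75 with DHA (adjusted p = 0.720). Acot3, a peroxisomal thioesterase, had 63.3, 2.19, 6.86, 2.24 and 81.9 CPM in EPA livers, 38.8, 9.18, 14.0, 4.48 and 26.6 CPM in DHA livers, and 0, 3.66, 2.13 and 1.44 CPM in OD livers, where it had 0 to 2 counts, so no fold is given. It too stood highest in EPA 1 and EPA 5, and its adjusted p was 0.438 with EPA and 0.741 with DHA. Abcd2, a peroxisomal transporter, had 1.45 ± 0.50 with EPA (adjusted p = 0.613), and the hydroxylase Cyp4a10 1.60 ± 0.62 with DHA (adjusted p = 0.741). Cd36, a fatty acid transporter, had 1.20 ± 0.36 with EPA (adjusted p = 0.445), and Acsl1, which activates long chains to acyl-CoA, 0.56 ± 0.19 with DHA (adjusted p = 0.720).

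In skin, 7 members had enough counts to be tested (Acadl, Acadm, Hadha, Hadhb, Hadh, Etfa and Etfb), and none passed in any contrast, nor did any of the 2133 tested genes (0% with EPA, with DHA and between them, with 89, 46 and 46 genes at an unadjusted p under 0.05). DESeq2 called 0 members in skin. Etfa averaged 153 ± 60.4 CPM with EPA, 179 ± 44.8 CPM with DHA and 246 ± 99.4 CPM with OD, on 4 to 54 counts per library. Its changes were -0.75 ± 0.31 with EPA and -0.66 ± 0.31 with DHA, with adjusted p of 0.975 and 0.999. Hadh had -0.79 ± 0.33 with EPA and -0.24 ± 0.32 with DHA, and Etfb -0.51 ± 0.25 and -0.53 ± 0.25 in the same order. An unadjusted p under 0.05 was reached by 2 of the 7 members with EPA (Hadh and Etfa) and 2 with DHA (Etfa and Etfb), all lower. All 3 had fitted changes below 0 in skin and above 0 in aorta, and no skin change passed the threshold.

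Whether the diet changes differed between tissues was tested directly over 9912 genes. None of the 36 members tested passed in any of these contrasts. The share of all genes that passed was 0.0404% for EPA between aorta and liver, 0% for EPA between aorta and skin, 0.0202% for DHA between aorta and liver, and 0% for DHA between aorta and skin. The unadjusted p was under 0.05 for 10 members in each EPA contrast, and for 13 and 9 in the DHA contrasts with liver and with skin. For each of these members the log2 change was more positive in aorta. Over all 9912 genes, 589 and 631 had such a p for EPA with liver and skin, and 750 and 682 for DHA. DESeq2 called 2, 3, 3 and 3 members in the same order. Hadha had the smallest p of the DHA contrast between aorta and liver, with a difference in log2 change of 1.01 ± 0.31 (adjusted p = 0.296), and Hadh that of the EPA contrast between aorta and skin, with 1.37 ± 0.31 (adjusted p = 0.191). No single member passed this test of a difference between tissues.

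Fitted differences between tissues spanned a wider range than the diet changes, but were not larger for every member. Aorta minus liver ran from -7.60 to 5.63 (median -0.18), and DHA minus OD in aorta from -0.30 to 1.10 (median 0.71). On a scale common to all libraries, 33 of 36 tested members passed between skin and liver, 1 higher and 32 lower in skin, where 71.2% of all genes passed. Between skin and aorta 33 passed, 2 higher and 31 lower in skin, where 62.8% of all genes passed. Between aorta and liver 29 passed, 12 higher and 17 lower in aorta, where 66.1% of all genes passed. Scaling by total counts raised the median of all genes by 0.69 between aorta and liver, 0.47 between skin and aorta and 1.18 between skin and liver, and turned the aorta and liver split to 20 higher and 14 lower of 34. Fgf21 and Ucp3 had too few counts for this fit. Libraries of different tissues were treated as independent. High Xist fell on the same replicate numbers in each tissue, so tissues may share mice, and the p-values between tissues do not allow for that.

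The trifunctional protein, the isoforms of carnitine palmitoyltransferase and the peroxisomal enzymes set the tissues apart in different ways. Hadhb averaged 99.9 ± 31.6 CPM in skin, 830.3 ± 234 CPM in aorta and 236 ± 22.5 CPM in liver on the common scale (SD, n = 14 each), 1.75 ± 0.12 higher on the log2 scale in aorta than in liver. Hadha had 76.8 ± 29.9, 545 ± 155 and 247 ± 48.8 CPM in skin, aorta and liver. The muscle isoform Cpt1b had 3.75 ± 4.91 CPM in skin, 135 ± 38.3 CPM in aorta and 2.93 ± 2.66 CPM in liver. The liver isoform Cpt1a was highest in liver, with 43.4 ± 24.8 CPM in skin, 62.0 ± 18.6 CPM in aorta and 423 ± 64.5 CPM in liver. Pdk4 had 20.3 ± 17.8, 285 ± 102 and 5.38 ± 5.28 CPM in skin, aorta and liver. Its excess of aorta over liver was the largest fitted among the 36 tested members (5.63 ± 0.27). In liver Pdk4 had 0 to 7 counts per library and Cpt1b 0 to 2, so the size of either excess is uncertain.

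Peroxisomal members and the regulators stood highest in liver. Acaa1b had 11 ± 10.9 CPM in skin, 11.1 ± 5.66 CPM in aorta and 532 ± 268 CPM in liver, Ehhadh 6.82 ± 10.3, 39.5 ± 19.9 and 148 ± 71.6 CPM, and Hsd17b4 29.0 ± 14.6, 113 ± 29.6 and 269.7 ± 39.1 CPM in the same order. Ppara had 9.60 ± 11.9 CPM in skin, 57.3 ± 18.6 CPM in aorta and 221 ± 46.5 CPM in liver, and Creb3l3 5.25 ± 6.68, 1.70 ± 2.07 and 373 ± 78.1 CPM. Ppargc1a did not differ past the threshold between aorta and liver, with 56.6 ± 34.9 CPM in aorta and 61.6 ± 14.7 CPM in liver. Neither did Cpt2, Hadh, Decr1, Etfa, Etfb and Etfdh, whose differences were -0.21 to 0.26. Ucp1 averaged 12.8 ± 11.4 CPM in skin, 1427 ± 582 CPM in aorta and 3.53 ± 3.16 CPM in liver on this scale, and its part in the aorta levels of the members was not tested.

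**Figure D5:**
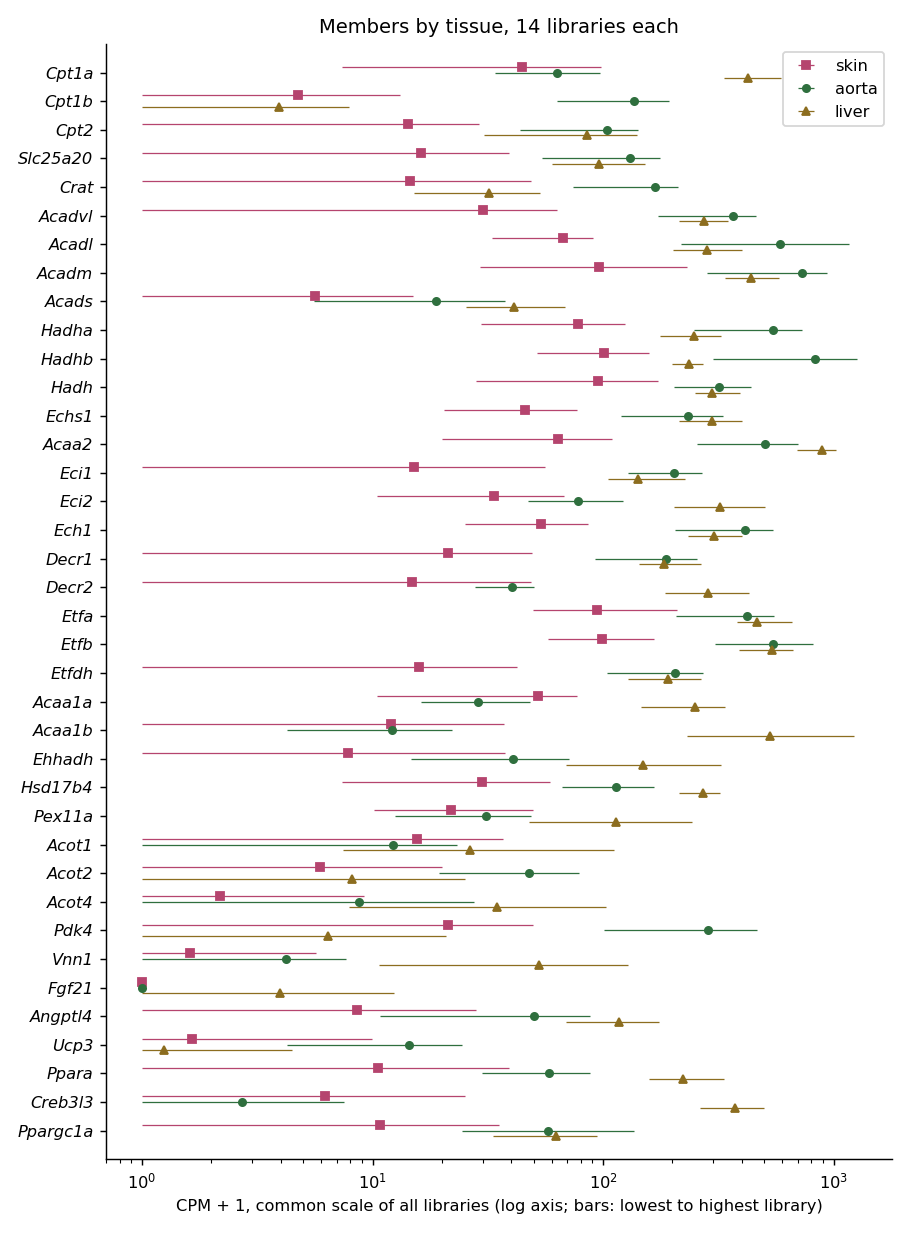
Levels of the 38 members in skin, aorta and liver as CPM plus 1 on the common scale (horizontal log axis), with a point for the mean of 14 libraries and a bar from the lowest to the highest. Cpt1b and Pdk4 stand highest in aorta, Cpt1a, Acaa1b and Creb3l3 in liver, and most members lowest in skin.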

How the data were processed

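RNA from ear skin, aorta and liver was sequenced with a 3' tag kit that starts from 10 ng of RNA, per the labels' protocols. The authors deposited raw counts per gene and library, per the file headers; a table headed as CPM was not used. GRCm38.p6 and edgeR are named in the submitters' processing notes, and the sources used here do not name the aligner, the counting or any collapsing of molecular tags. Samples were grouped by tissue and diet from the labels. Per tissue, genes were filtered with filterByExpr (minimum count 10), scaled by TMM and tested with edgeR 4.0.16 (R 4.3.3) by the quasi-likelihood test over the 3 diets, with Benjamini-Hochberg adjustment over all tested genes and a threshold of 0.05; intervals are 95%. Differences between tissues came from 1 fit of all 42 libraries on a common TMM scale. The test was checked on simulated counts. Alternatives used DESeq2 1.42.0, limma 3.58.1 voom, other scalings, no filter, covariates and left-out libraries. No 2 libraries agreed within sampling noise over 78 pairs. The floor of 3 counts covers counting error only.

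The members and lists were chosen with earlier results of these data known. Members past the threshold are given by library, at most 12 per contrast by smallest p, with regulators and classical targets always described and at most 4 other pathway genes per contrast. Gene positions are from the GENCODE annotation of GRCm38 and start windows from RefSeq. The labels give 4 to 5 mice per group without tying a library to a mouse, so p-values measure the spread between these libraries.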

Additional observations from a re-analysis of the deposited data

Results flagged for a closer look

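Of 84 groups of 4 or 5 libraries examined for a library that stands apart by Dixon's criterion, 3 had one, and chance flags about 1 in 20 groups. Acadl in DHA aortas had its highest library, DHA 4, at 1233 CPM, with the next at 722 CPM. Hadhb in DHA aortas had its highest library, DHA 1, at 1327 CPM, with the next at 1024 CPM. Vnn1 in OD livers had its lowest library, OD 3, at 6.39 CPM, with the next at 17.3 CPM.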

How the results depend on the processing

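With DHA in aorta, 16 members passed, and the number was 14 to 19 under DESeq2, voom, DESeq2's size factors, no filter, the 2 diets alone, the skeletal muscle covariate and without the high Xist libraries. It was 7 in 1 fit of all 42 libraries, 4 with total counts scaling, and 0 with the brown adipocyte covariate, the white adipocyte covariate or without OD aortas 3 and 4; the last 2 were chosen after seeing the data. Leaving out 1 library at a time gave 3 to 19. With EPA in aorta, 2 passed, against 14 under DESeq2, 11 under voom, 14 with no filter and 6 without the high Xist libraries. It was 0 with the 2 diets alone, total counts scaling, 1 fit of all libraries, any of the 3 marker covariates, or without OD aortas 3 and 4. Leaving out 1 library at a time gave 0 to 16. The causes were not tested.

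With no filter, 2 members passed in liver with EPA and 3 with DHA, against 0. DESeq2 called 2 members for the EPA difference between aorta and liver and 3 in each of the other tests of a difference between tissues, against 0. Leaving out 1 library at a time gave 28 to 30 members between aorta and liver, 32 to 33 between skin and aorta, 33 between skin and liver, and 0 in every liver, skin, EPA minus DHA and between-tissue diet contrast. For these alternatives and those above, the share of all genes that passed is not given. The counts therefore show only how far they depend on the setting.

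Directions reversed in aorta with the brown adipocyte covariate: for DHA, Acaa2 had -0.12, Acadm -0.083, Acadvl -0.071, Cpt1b -0.16, Ehhadh -0.31, Hadhb -0.037 and Pdk4 -0.14, and for EPA, Acaa2 had -0.20, Acadvl -0.13, Cpt1b -0.045, Hadhb -0.019, Pdk4 -0.11 and Cpt1a 0.058. With the white adipocyte covariate, Angptl4 had -0.28 for DHA, and Acaa2 had -0.033, Pdk4 -0.10 and Cpt1a 0.039 for EPA. Both lists cover only the members with an unadjusted p under 0.05 in the contrast, 25 for DHA and 23 for EPA. No paired analysis was possible because the labels carry no replicate numbers and do not name the mouse of a library; the numbers used here follow the order of listing. Skin depth limited the members tested there to 7.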
